A study of Mus musculus with 6 samples.

Results

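The integrated stress response factors and the mitokines were compared between unstretched and cyclically stretched C2C12 mouse myoblasts. The genes were chosen by symbol, with earlier results of these data known, and are Atf4, Atf3, Atf5, Ddit3, Trib3, Chac1, Ppp1r15a, Cebpb, Gdf15 and Fgf21. These 10 symbols match 11 of the 22375 rows of the expression table, since Ddit3 has a second row. Of the 10 genes, 9 passed the filter on low values and were tested among 11593 genes, and Fgf21 did not pass it. C2C12 is an established line of mouse skeletal muscle precursor cells. All cells were plated near confluence on elastic plates coated with poly-lysine. The CON group (3 libraries) was not stretched, and the 4H group (3 libraries) was stretched cyclically at 15% elongation for 4 h. RNA-seq levels are given as FPKM, which scales fragments to transcript length and library size, so that levels of different genes can be set side by side.

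The integrated stress response starts when one of the eIF2α kinases, which sense amino acid shortage, unfolded proteins, viral RNA or heme and mitochondrial stress, phosphorylates the initiation factor eIF2. General translation then falls while the mRNA of ATF4 is translated more. ATF4 pairs with C/EBP proteins and activates genes of amino acid supply, tRNA charging, redox balance and, with CHOP, cell death. GDF15 and FGF21 are secreted hormones that skeletal muscle releases under mitochondrial stress, and are therefore known as mitokines. Since ATF4 is controlled largely at translation, an mRNA level is not a measure of its protein, and neither protein nor eIF2 phosphorylation was measured in these libraries.

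The promoters of the genes show which of them carry the short elements that this network reads. In RefSeq windows of GRCm38.p6 that run from 250 bases before to 50 bases after the transcription start, both strands were searched for TGATGNAA (the core of the C/EBP-ATF response element, bound by ATF4 with a C/EBP partner), for TGACGTCA (the cyclic AMP response element) and for TGANTCA (the AP-1 site). All 10 genes had a window. The stretches that hold a match follow, 5′ to 3′ on the strand of the gene, with the match in capitals.

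Atf3 (chr1:191183406-191183473, minus strand): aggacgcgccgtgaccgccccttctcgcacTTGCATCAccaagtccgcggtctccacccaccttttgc
Chac1 (chr2:119351019-119351086, plus strand): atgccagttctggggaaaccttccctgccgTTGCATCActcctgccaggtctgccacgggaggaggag
Fgf21 (chr7:45615592-45615659, minus strand): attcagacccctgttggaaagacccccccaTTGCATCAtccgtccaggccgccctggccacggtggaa
Trib3 (chr2:152344029-152344056, minus strand): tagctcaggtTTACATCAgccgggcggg
Ppp1r15a (chr7:45526269-45526290, minus strand): gcctctccggTGACGTCAgcac
Ddit3 (chr10:127290543-127290587, plus strand): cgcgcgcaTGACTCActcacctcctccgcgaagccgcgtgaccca

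The C/EBP-ATF core was found in 4 of the 10 genes, where 4.51% of the 27025 genes with a window hold it. In each of the 4 it lies on the strand opposite to the gene, as TGATGCAA in Atf3, Chac1 and Fgf21 and as TGATGTAA in Trib3. Counted from the RefSeq start site of each window, the match begins 110 bases upstream in Atf3, 193 bases upstream in Chac1 and 139 bases upstream in Fgf21, while in Trib3 its first base is base 15 of the transcript. The RefSeq start is not always the outer end of the gene in GENCODE M21, from which the gene coordinates further on are taken. In Atf3 (RefSeq start 191183333) it lies 34706 bases inside the longer GENCODE gene, and in Trib3 (RefSeq start 152344060) it lies 28 bases upstream of the GENCODE gene, so that the Trib3 match is also outside the GENCODE gene. In Chac1, Ddit3, Fgf21 and Ppp1r15a the starts are at most 19 bases apart. The cyclic AMP response element was found in Ppp1r15a, 12 bases before the RefSeq start, and in 2.03% of all genes. The AP-1 site was found in Ddit3, 242 bases before the RefSeq start, and in 8.97% of all genes. No match to one of these motifs overlapped a match to another in these genes. In Atf4, Atf5, Cebpb and Gdf15 none of the 3 strings was found in these windows.

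All libraries carried myoblast markers. Their relative depth could be estimated only from the steps between values of genes below 0.1 FPKM, 12 to 23 genes per pair of libraries, and by this estimate it differed by at most 1.55% between any pair. Of the 6 myoblast markers, all were expressed, and their summed level was 1974 to 2051 FPKM in CON and 2984 to 3214 FPKM in 4H, with 5 of the 6 higher (83.3%, beside 22.6% of all genes tested) and Myf5 lower in 4H (16.7%, beside 24.1%). Most of this sum is Vim, which many mesenchymal cells express, at 1863 ± 38.3 FPKM in CON and 2832 ± 125 FPKM in 4H, while Myod1, which defines myoblasts, was at 5.13 ± 0.573 FPKM in CON and 18.2 ± 0.738 FPKM in 4H. The 10 myotube markers summed to 1.82 to 2.45 FPKM in CON and 3.13 to 3.74 FPKM in 4H. The 10 markers of other cell types summed to 10.1 to 11.4 FPKM in CON and 20.7 to 22.6 FPKM in 4H, most of it from Cd68 and Pdgfra, while Ptprc, Epcam, Plin1 and Rbfox3 were listed at 0 in every library. The part of these markers in the results on the stress response genes was not tested.

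All 9 of the stress response genes and mitokines tested were lower in the 4H group, at 21.4% to 71.9% of the CON mean. Trib3, the pseudokinase that restrains ATF4, fell furthest, and Gdf15 fell least. Each of the 9 had an adjusted p of at most 0.05 (limma on log2(FPKM + 0.5), Benjamini-Hochberg adjustment over all genes tested), a mark that 24.1% of all genes tested reached in the same direction and 22.6% in the other. In 6 of them, Trib3, Atf5, Ddit3, Chac1, Ppp1r15a and Atf4, the fall was also at least 1 on the log2 scale, as it was in 1.28% of all genes, while 2.61% of all genes rose by that much. In each of the 9 every 4H library was below every CON library, which was so for 29.2% of all genes. The median log2 fold change was -1.15 over the 9 genes and -0.01 over all genes tested. A p-value here measures only the spread between these samples, which may be technical, since the labels do not say whether the replicates came from separate cultures. In RNA from whole cultures, less RNA per cell and fewer cells that express a gene cannot be told apart.

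**Figure D1:**
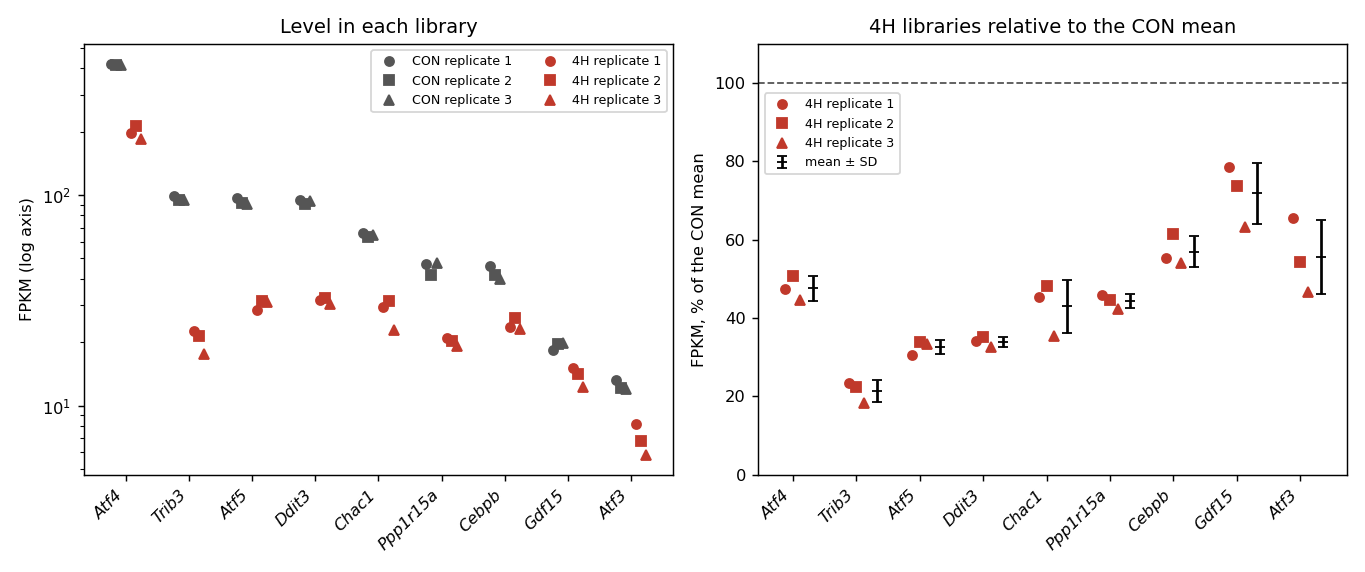
Left, FPKM of the 9 tested genes in each of the 3 CON (grey) and 3 4H (red) libraries on a log axis; right, the same 4H levels as a percent of the CON mean of the gene, on a linear axis, with the mean ± SD of the 3 libraries. Every 4H point lies below every CON point of its gene, from 21.4% of the CON mean in Trib3 to 71.9% in Gdf15.

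Atf4 (ENSMUSG00000042406, mm10 chr15:80255184-80257541, plus strand) encodes the central transcription factor of the response and was by far the most abundant of these mRNAs. Its level was 421, 415 and 414 FPKM in CON replicates 1, 2 and 3, and 198, 212 and 185 FPKM in 4H replicates 1, 2 and 3. The CON libraries lay within a few FPKM of each other and far above all 4H libraries. The mean was 416 ± 3.90 FPKM in CON and 198 ± 13.2 FPKM in 4H (SD, n = 3 each), or 47.6% of the CON mean. The log2 fold change was -1.07 ± 0.05 (SE, 95% interval -1.18 to -0.97, adjusted p = 9.06e-07, limma), the 132nd lowest of the 11593 genes. No other gene overlaps the exons of Atf4 in GENCODE M21.

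Atf5 (ENSMUSG00000038539, chr7:44812256-44816658, minus strand), a relative of Atf4 that is also translated under eIF2 phosphorylation and is linked to the mitochondrial unfolded protein response, was at 97.2, 91.8 and 90.6 FPKM in the CON libraries, against 28.4, 31.5 and 31.1 FPKM with stretch. The groups were far apart, and Atf5 is the gene of the 9 in which 4H replicate 3 was not the lowest of the 4H libraries. The mean was 93.2 ± 3.51 FPKM in CON and 30.3 ± 1.66 FPKM in 4H, and the log2 fold change was -1.603 ± 0.05 (95% interval -1.71 to -1.49, adjusted p = 1.66e-07). Its exons overlap those of Nup62 and Il4i1 on the other strand, and 0.55% of its 75-base stretches recur in them. Nup62, a nucleoporin, changed by -0.33 on the log2 scale, from 51.5 to 40.9 FPKM.

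Within each library the log2 ratio of Atf4 to Atf5 was 2.11, 2.17 and 2.19 in CON and 2.78, 2.73 and 2.56 in 4H, on the log2(FPKM + 0.5) scale. The ratio was thus higher in every 4H library, by 0.53 ± 0.07 (SE), as Atf5 mRNA fell further than Atf4 mRNA. In an exact two-sided permutation test this gave p = 0.1, the smallest value that 3 libraries against 3 allow, and 0.117 after adjustment over the 7 ratios computed, so that the test could not reach 0.05.

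Ddit3 (ENSMUSG00000025408, chr10:127290774-127296288, plus strand) encodes CHOP, the partner of ATF4 that is known for promoting apoptosis. It was at 94.7, 90.2 and 93.9 FPKM in the CON libraries, against 31.7, 32.6 and 30.3 FPKM in the 4H libraries. Both groups were tight, with a coefficient of variation of 2.58% in CON and 3.73% in 4H. The mean was 92.9 ± 2.39 FPKM in CON and 31.5 ± 1.17 FPKM in 4H, and the log2 fold change was -1.54 ± 0.04 (95% interval -1.63 to -1.45, adjusted p = 8.18e-08). The second row of the symbol (ENSMUSG00000116429, chr10:127290829-127293753) is a short gene model on the same strand, with a longest transcript of 105 bases whose 75-base stretches all recur in the first, and it was listed at 0 in every library.

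The exons of Ddit3 also overlap those of Mars1, the methionyl-tRNA synthetase, which lies on the other strand. Mars1 was at 99.1 ± 2.92 FPKM in CON and 67.6 ± 0.868 FPKM in 4H, and it fell by 0.55 on the log2 scale (adjusted p = 5.03e-06, limma). The libraries preserve strand, but whether the counting used strand is not stated in the labels or methods. It is therefore not known whether reads of the overlapping part were kept apart. Of the 75-base stretches of Ddit3, 1.81% recur, in its second row alone and not in Mars1. The log2 ratio of Ddit3 to Atf4 was -2.15, -2.19 and -2.13 in the CON libraries and -2.62, -2.68 and -2.59 in the 4H libraries. The groups did not overlap, and the difference was -0.47 ± 0.03 (exact permutation p = 0.1, adjusted 0.117).

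Atf3 (ENSMUSG00000026628, chr1:191170296-191218039, minus strand), a stress-induced factor of the ATF family that ATF4 is known to activate, was the least abundant of the 9. Its level was 13.3, 12.2 and 11.9 FPKM in the CON libraries and 8.18, 6.77 and 5.82 FPKM in the 4H libraries. The 4H libraries spread more widely than for any other of the 9 genes, with a coefficient of variation of 17.1%, yet all were below the CON libraries. The mean was 12.5 ± 0.723 FPKM in CON and 6.92 ± 1.19 FPKM in 4H, and the log2 fold change was -0.81 ± 0.11 (95% interval -1.07 to -0.56, adjusted p = 0.000521).

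Cebpb (ENSMUSG00000056501, chr2:167688915-167690418, plus strand) encodes C/EBPβ, a partner of ATF4 on composite elements and a factor of adipose and immune gene programmes. It was at 46.1, 41.9 and 39.8 FPKM in the CON libraries, against 23.6, 26.2 and 23.0 FPKM in the 4H libraries. The groups did not overlap. The mean was 42.6 ± 3.21 FPKM in CON and 24.3 ± 1.71 FPKM in 4H, a log2 fold change of -0.80 ± 0.07 (95% interval -0.95 to -0.64, adjusted p = 3.71e-05). Of the 75-base stretches of its longest transcript, 16.7% recur in Peds1 (Tmem189 in GENCODE M21), whose exons overlap it on the other strand, and Peds1 moved the other way, from 16.3 to 18.3 FPKM.

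Cebpd, the C/EBP relative set beside Cebpb, was scarce, at 1.18 ± 0.159 FPKM in CON and 0.870 ± 0.019 FPKM in 4H, and its log2 fold change of -0.29 ± 0.12 did not pass the test (adjusted p = 0.085, limma). The log2 ratio of Cebpb to Cebpd was 4.92, 4.68 and 4.45 in CON and 4.16, 4.28 and 4.09 in 4H. It was lower in every 4H library, by 0.51 ± 0.15, with the smallest gap between groups among the ratios that did not overlap (exact permutation p = 0.1, adjusted 0.117). Adding 0.5 FPKM understates the fall of so low a gene as Cebpd and so overstates this difference. In FPKM, Cebpd was at 73.8% and Cebpb at 57.0% of the CON mean.

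Trib3 (ENSMUSG00000032715, chr2:152337422-152344032, minus strand) encodes the Tribbles pseudokinase that ATF4 and CHOP induce and that in turn inhibits ATF4 and AKT. It was at 98.9, 94.6 and 94.7 FPKM in the CON libraries, against 22.6, 21.4 and 17.6 FPKM in the 4H libraries. The 4H libraries were at 23.5%, 22.3% and 18.3% of the CON mean. The mean was 96.1 ± 2.44 FPKM in CON and 20.5 ± 2.62 FPKM in 4H. The log2 fold change of -2.21 ± 0.08 (95% interval -2.40 to -2.01, adjusted p = 4.9e-07) ranked 18th from the lowest of all genes tested.

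Its relative Trib1, a Tribbles protein known for directing C/EBP proteins to degradation, moved the other way, from 3.92 ± 0.198 FPKM in CON to 10.3 ± 0.0833 FPKM in 4H (1.29 ± 0.06 on the log2 scale, adjusted p = 1.91e-06, limma). The log2 ratio of Trib3 to Trib1 was 4.52, 4.47 and 4.36 in the CON libraries and 1.10, 1.02 and 0.76 in the 4H libraries. This was the widest change of the 7 ratios, -3.49 ± 0.11 (exact permutation p = 0.1, adjusted 0.117).

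Ppp1r15a (ENSMUSG00000040435, chr7:45522916-45526268, minus strand) encodes GADD34, the inducible subunit that brings protein phosphatase 1 to eIF2α and so ends the response. It was at 47.2, 41.8 and 47.5 FPKM in the CON libraries, against 20.9, 20.3 and 19.3 FPKM in the 4H libraries. The CON libraries spread more than the 4H libraries here, and the groups remained far apart. The mean was 45.5 ± 3.22 FPKM in CON and 20.1 ± 0.826 FPKM in 4H, and on the log2 scale the change was -1.15 ± 0.06 (95% interval -1.29 to -1.02, adjusted p = 2.24e-06). Tulp2, which overlaps its exons on the other strand, was below 0.4 FPKM in every library and was not tested.

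Ppp1r15b, the constitutive counterpart of Ppp1r15a, was at nearly the same level in CON, 45.6 ± 2.04 FPKM, and at 40.5 ± 2.67 FPKM in 4H (log2 fold change -0.17 ± 0.06, adjusted p = 0.0338, limma). The log2 ratio of the inducible to the constitutive subunit was -0.02, -0.10 and 0.10 in the CON libraries and between -1.01 and -0.94 in the 4H libraries. The subunits were at like levels in CON, and the inducible one was the lower in 4H, a difference of -0.98 ± 0.06 (exact permutation p = 0.1, adjusted 0.117).

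Chac1 (ENSMUSG00000027313, chr2:119351229-119354381, plus strand) encodes a γ-glutamylcyclotransferase that degrades glutathione and is a known target of ATF4, ATF3 and CHOP. It was at 66.3, 63.5 and 64.9 FPKM in the CON libraries, against 29.4, 31.3 and 23.0 FPKM in the 4H libraries. CON was tight, while 4H replicate 3 stood below the other two 4H libraries. The mean was 64.9 ± 1.44 FPKM in CON and 27.9 ± 4.39 FPKM in 4H, and the log2 fold change was -1.22 ± 0.10 (95% interval -1.45 to -0.98, adjusted p = 3.28e-05).

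Chac2, the constitutive enzyme of the same activity, rose from a mean of 5.04 ± 0.570 FPKM in CON to 7.09 ± 0.257 FPKM in 4H (0.46 ± 0.09 on the log2 scale, adjusted p = 0.00292, limma). The log2 ratio of Chac1 to Chac2 was 3.64, 3.37 and 3.69 in the CON libraries and 1.99, 2.11 and 1.58 in the 4H libraries. The ratio was lower in every 4H library, by 1.67 ± 0.19 (exact permutation p = 0.1, adjusted 0.117), though Chac1 was still the more abundant in all 6 libraries.

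**Figure D2:**
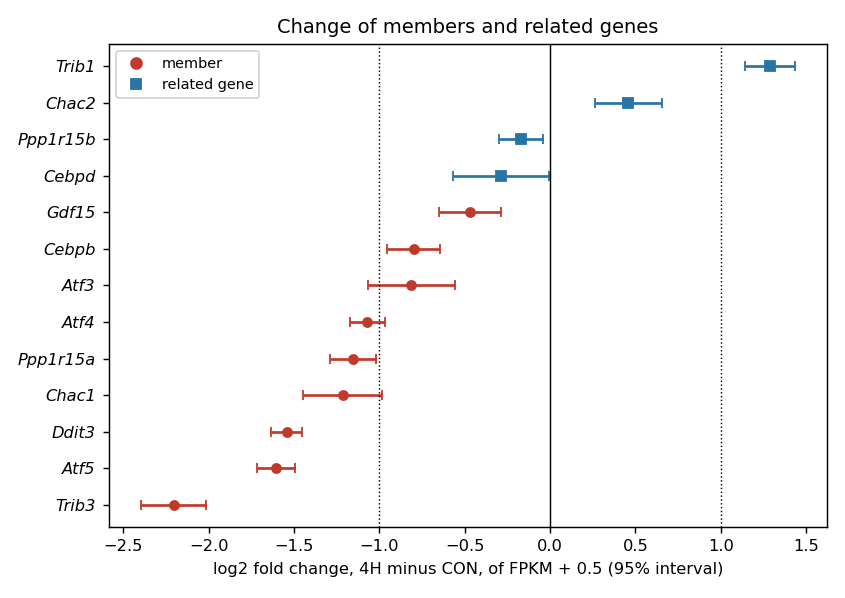
Log2 fold change, 4H minus CON, of FPKM + 0.5 with its 95% interval for the 9 tested genes (red circles) and the 4 relatives set beside them (blue squares), with dotted lines at -1 and 1. All 9 lie below 0, from -2.21 in Trib3 to -0.47 in Gdf15, while Trib1 and Chac2 lie above 0 and the interval of Cebpd comes close to 0.

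Gdf15 (ENSMUSG00000038508, chr8:70629393-70632456, minus strand) encodes a hormone of the TGF-β superfamily that acts on the hindbrain receptor GFRAL and is induced by ATF4, CHOP, p53 and EGR1. It was at 18.3, 19.6 and 19.8 FPKM in the CON libraries, against 15.1, 14.2 and 12.2 FPKM in the 4H libraries. The lowest CON library was still above the highest 4H library, by a smaller margin than in the transcription factors. The mean was 19.3 ± 0.833 FPKM in CON and 13.8 ± 1.496 FPKM in 4H, and the log2 fold change of -0.47 ± 0.08 (95% interval -0.65 to -0.29, adjusted p = 0.00165) ranked 774th from the lowest of all genes tested.

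Fgf21 (ENSMUSG00000030827, chr7:45613886-45615490, minus strand), the endocrine fibroblast growth factor that signals through FGF receptors with β-Klotho, was barely detected. It was at 0.993, 0 and 1.47 FPKM in the CON libraries, against 0.0439, 0.110 and 0 FPKM in the 4H libraries. The groups overlapped, since CON replicate 2 was listed at 0. Its mean over all libraries, 0.435 FPKM, was under the filter of 0.5 FPKM, and the difference of -0.768 FPKM had an exact two-sided permutation p of 0.4. Without CON replicate 2 the gene would pass the filter, but only through the other two CON libraries, so that no test of a fall can be had from leaving it out. The log2 ratio of Gdf15 to Fgf21 overlapped between the groups (exact permutation p = 0.4).

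The order of the 9 levels differed between the groups. In CON it ran from Atf4 through Trib3, Atf5 and Ddit3, which did not differ beyond the spread of their libraries, to Chac1, then Ppp1r15a and Cebpb, which overlapped, then Gdf15 and Atf3. In 4H Atf4 was again on top, followed by Ddit3, Atf5, Chac1 and Cebpb, where Ddit3 overlapped Atf5, Atf5 overlapped Chac1 and Chac1 overlapped Cebpb. Cebpb was above Trib3, with no overlap. Trib3, in the second place in CON, was in the sixth in 4H and there overlapped Ppp1r15a, and Gdf15 and Atf3 were last in both. The spread between libraries was larger in 4H than in CON for 7 of the 9 genes, with a coefficient of variation of 0.937% to 7.53% in CON and of 3.73% to 17.1% in 4H. 4H replicate 3 was the lowest of the 4H libraries in 8 of the 9 genes, and in 36.5% of all genes tested. No fold change of the 9 changed direction or lost its adjusted p of at most 0.05 with any library left out.

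**Figure D3:**
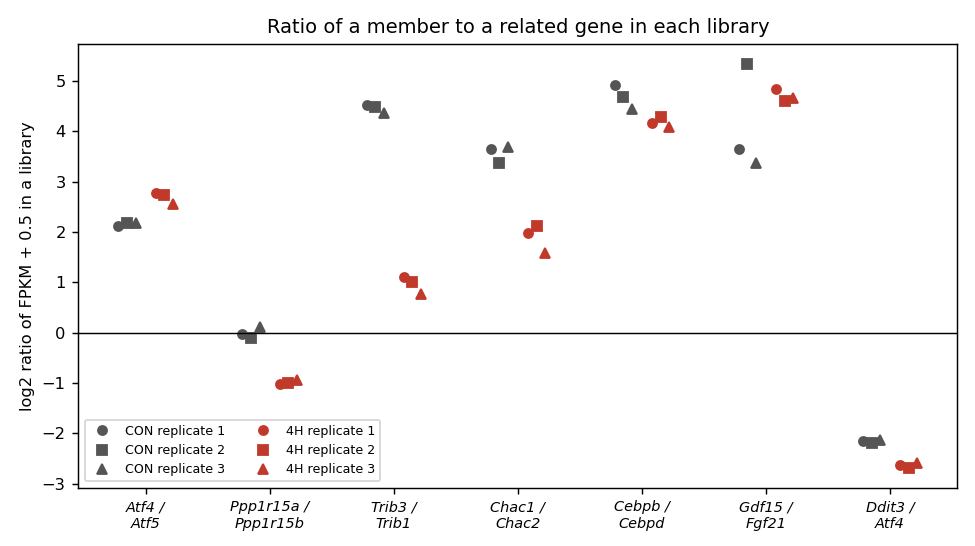
Log2 ratio of FPKM + 0.5 of a gene to a relative or partner within each library, for the 3 CON (grey) and 3 4H (red) libraries. The groups are apart in every pair but Gdf15 / Fgf21, and the widest shift is that of Trib3 / Trib1, from a mean of 4.45 in CON to 0.96 in 4H.

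The gene lists that follow were chosen with earlier results of these data known, so their shares are descriptive only. Of 21 genes upstream of ATF4, those of the eIF2 kinases, eIF2, its exchange factor eIF2B and their regulators, 10 fell (47.6%, beside 24.1% of all genes tested) and 2 rose (9.52%, beside 22.6%) at an adjusted p of at most 0.05. After rescaling to TPM, 8 fell and 4 rose. None of the changes reached 1 on the log2 scale, and the median log2 fold change was -0.07. The largest falls were in Eif2s2, the β subunit of eIF2 (-0.64 ± 0.03), Eif2b3, the γ subunit of eIF2B (-0.50 ± 0.06), and Impact, an inhibitor of GCN2 activation (-0.48 ± 0.06), and the rises were in Ppp1cc, a catalytic subunit of protein phosphatase 1 (0.42 ± 0.06), and Dnajc3, an inhibitor of PERK (0.38 ± 0.05). Among the kinases, Eif2ak2 (PKR) fell by 0.26 (adjusted p = 0.016, limma), while the values of Eif2ak1 (HRI, 0.11), Eif2ak3 (PERK, 0.20) and Eif2ak4 (GCN2, 0.10) did not pass the test.

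The relatives and bZIP partners of the transcription factors split in direction. Of 30 genes 27 were tested, but Fos and Fosb passed the filter on low values only through their 4H levels and could be seen only as rises. Of the other 25, 11 fell (44%, beside 24.1% of all genes tested) and 7 rose (28%, beside 22.6%), with a median of -0.12. This split was made after seeing the data, and with all 27 the counts were 11 and 9, with a median of -0.08. Nfe2l1 (-0.80 ± 0.05), known for restoring proteasome genes, Cebpg (-0.75 ± 0.08), the C/EBP partner of ATF4, and Nfe2l2 (-0.60 ± 0.03), which encodes the antioxidant factor NRF2, fell furthest. Jun, a subunit of AP-1, rose by 0.98 ± 0.04. Fos and Fosb, further subunits of AP-1, were scarce, at 0.185 ± 0.0539 and 0.295 ± 0.108 FPKM in CON and at 1.22 ± 0.156 and 1.90 ± 0.0982 FPKM in 4H.

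The known targets of ATF4 in amino acid metabolism, transport and tRNA charging were lower in 4H almost throughout. Of 22 genes of amino acid metabolism and transport tested, 21 fell (95.5%, beside 24.1% of all genes tested) and none rose. Of the falls, 14 were past both thresholds, beside 1.28% of all genes tested. The median log2 fold change was -1.455. Cth, the cysteine-forming cystathionine γ-lyase, fell from 68.8 ± 2.71 to 8.69 ± 0.961 FPKM (-2.92 ± 0.08), Aldh1l2, a mitochondrial enzyme of folate metabolism, from 124 ± 3.02 to 20.1 ± 0.792 FPKM (-2.60 ± 0.04), and Psph, the last enzyme of serine synthesis, from 123 ± 5.32 to 29.5 ± 3.07 FPKM (-2.04 ± 0.07). The exception was Slc38a2, the amino acid transporter SNAT2, at 157 ± 4.00 FPKM in CON and 151 ± 5.66 FPKM in 4H (-0.06 ± 0.04, adjusted p = 0.232, limma). The C/EBP-ATF core was found in the windows of 5 of the 18 genes of this list with one, Asns, Pck2, Pycr1, Slc1a4 and Slc7a11.

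All 12 aminoacyl-tRNA synthetases of the list fell, beside 24.1% of all genes tested, with a median of -1.02. Past both thresholds were 6 of them, beside 1.28% of all genes tested. Wars1 (-1.41 ± 0.04), Sars1 (-1.34 ± 0.05) and Lars1 (-1.32 ± 0.05), which charge the tRNAs of tryptophan, serine and leucine, fell furthest. The C/EBP-ATF core was in 5 of the 8 windows matched by symbol. In the other lists it was in 3 of 15 windows of the other ATF4 and CHOP targets, 1 of 17 of the unfolded protein response, 1 of 16 of the eIF2 genes, 1 of 24 of the bZIP genes, and none of 13 mitochondrial, 17 mitokine receptor and 9 p53 pathway windows, beside 4.51% of all genes.

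A list of 19 genes held other targets of ATF4 and CHOP together with 3 relatives of the genes above, Trib1, Trib2 and Chac2. Of the 19, 13 fell (68.4%, beside 24.1% of all genes tested) and 5 rose (26.3%, beside 22.6%), and the median was -0.64. Past both thresholds were 7 falls and the rise of Trib1, where 1.28% of all genes fell and 2.61% rose by as much. Leaving out the 3 relatives, a choice made after seeing the data, gave 13 falls and 2 rises among 16 genes. Vldlr, a lipoprotein receptor, fell from 10.8 ± 0.792 to 1.05 ± 0.128 FPKM (-2.86 ± 0.09), Adm2, a peptide hormone, from 11.8 ± 0.467 to 2.30 ± 0.429 FPKM (-2.14 ± 0.11) and Stc2, a secreted glycoprotein, from 8.76 ± 0.746 to 2.58 ± 0.308 FPKM (-1.59 ± 0.10). Bcl2l11, which encodes the pro-apoptotic BIM, rose (0.73 ± 0.10), and among the relatives Trib2 rose as well (0.54 ± 0.14).

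**Figure D4:**
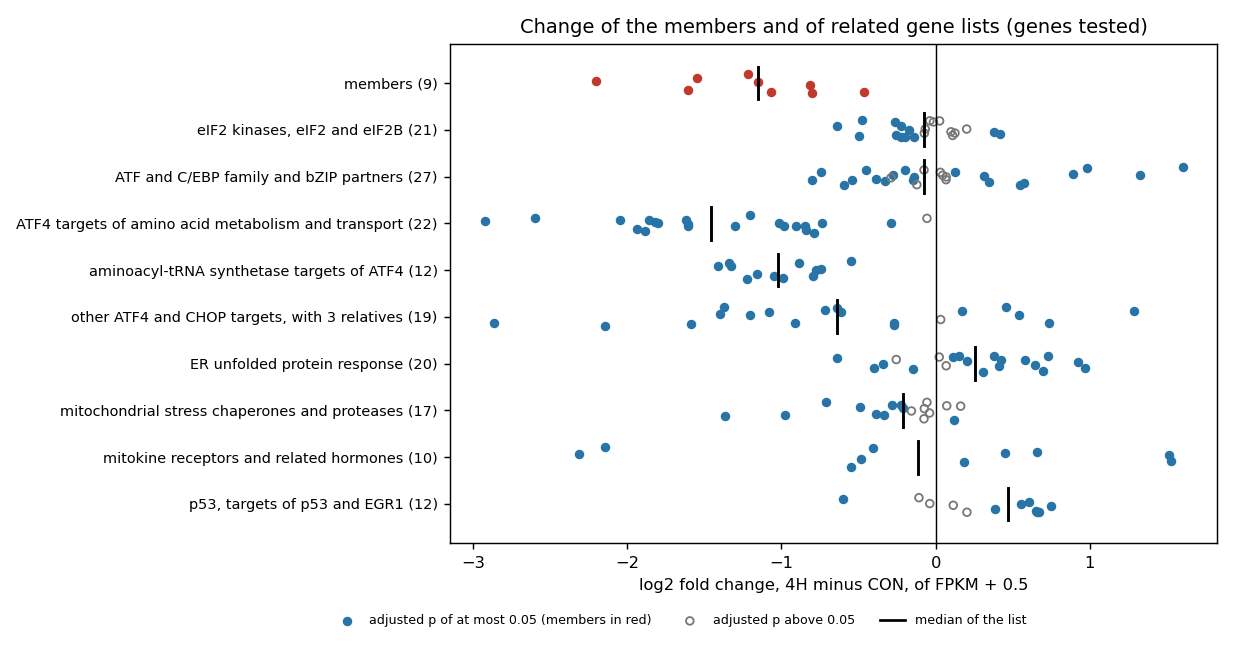
Log2 fold change, 4H minus CON, of each tested gene of the stress response set (red) and of 9 related lists (blue where the adjusted p is at most 0.05, open grey otherwise), with the median of each as a black bar and the number of genes tested in parentheses. The medians of the ATF4 target lists lie at -1.455, -1.02 and -0.64 (the last with 3 relatives of the red genes in it), and that of the unfolded protein response of the endoplasmic reticulum at 0.26.

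The unfolded protein response of the endoplasmic reticulum, which shares PERK and ATF4 with the integrated stress response, went largely the other way. Of its 20 genes, 13 rose (65%, beside 22.6% of all genes tested) and 4 fell, a share of 20% that is near the 24.1% of all genes. None passed both thresholds, and the median was 0.26. Creld2 (0.97 ± 0.06) and Sdf2l1 (0.92 ± 0.07), both chaperone partners, and Hsp90b1, which encodes the chaperone GRP94 (0.73 ± 0.03), rose the most. Herpud1 (-0.64 ± 0.05) and Sel1l (-0.40 ± 0.04), components of protein degradation at the endoplasmic reticulum, and Ern1, the sensor IRE1α (-0.34 ± 0.05), fell furthest. The lists share some genes, which are counted in each. Herpud1 is also in the list of other ATF4 and CHOP targets, Dnajc3 in the eIF2 list, and Atf6 and Xbp1 among the bZIP genes. Oma1 and Dele1 are in both the eIF2 and the mitochondrial list. Adm2 is in the list of other targets and in that of mitokine receptors and hormones.

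Of 17 mitochondrial chaperones, proteases and stress relays, 9 fell (52.9%, beside 24.1% of all genes tested) and 1 rose (5.88%, beside 22.6%), with a median of -0.21. Lonp1, the protease of the mitochondrial matrix, fell from 166 ± 3.46 to 64.1 ± 2.89 FPKM (-1.37 ± 0.04) and was the gene of this list past both thresholds. Hspa9, the matrix HSP70 (-0.98 ± 0.03), and Dnaja3, its cochaperone (-0.71 ± 0.05), followed. The rise was in Spg7, a protease of the inner membrane (0.12 ± 0.04, adjusted p = 0.0435, limma), and it did not pass with any library left out.

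The receptors of the mitokines and related hormones were mostly at the edge of detection, and 10 of the 21 genes in the table could be tested. Of these, 5 rose and 5 fell, 50% each, beside 22.6% and 24.1% of all genes tested. Gfral, the receptor of GDF15, averaged 0.387 ± 0.184 FPKM in CON and 0.00606 ± 0.0105 FPKM in 4H, Klb, which encodes β-Klotho, averaged under 0.1 FPKM in both groups, and Kl was listed at 0 in every library. Fgfr1, the most abundant FGF receptor of the list, was at 45.2 ± 1.79 FPKM in CON and 51.5 ± 3.50 FPKM in 4H. Angptl6, an angiopoietin-like hormone (-2.31 ± 0.10), Adm2 (-2.14 ± 0.11) and Fgf10 (-0.55 ± 0.05) fell furthest. Inhba, the subunit of activin A (1.53 ± 0.05), Fgf2 (1.51 ± 0.14) and the decoy receptor Fgfrl1 (0.66 ± 0.11) rose the most.

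Gdf15 is also a known target of p53 and EGR1. Of 12 genes, Trp53, Egr1 and known targets of p53, 7 rose (58.3%, beside 22.6% of all genes tested) and 1 fell (8.33%, beside 24.1%), with a median of 0.47. Egr1, an immediate early transcription factor (0.75 ± 0.09), Cdkn1a, which encodes the cell cycle inhibitor p21 (0.67 ± 0.05), and Btg2, an antiproliferative factor (0.66 ± 0.09), rose the most. The fall was in Trp53 itself, from 112 ± 3.00 to 74.0 ± 2.57 FPKM (-0.60 ± 0.04). The changes in these lists carry standard errors and come from the same limma fit with adjustment over all 11593 genes.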

How the data were processed

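RNA-seq of 3 CON and 3 4H libraries of C2C12 cells was analysed from the table deposited by the authors, which holds FPKM values per gene and library. The build is mm10 per the labels. For the aligner, the counting tool and the annotation, the sources used here give no name. The 4H libraries titled 4H1, 4H3 and 4H4 are replicates 1, 2 and 3 by their replicate labels. FPKM holds no read counts, so precision rests on 3 libraries per group and no counting error is given.

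Genes that averaged at least 0.5 FPKM over the libraries entered a limma 3.58.1 fit (R 4.3.3, eBayes with trend, two-sided) on log2(FPKM + 0.5) with Benjamini-Hochberg adjustment. The thresholds were an absolute log2 fold change of 1 and an adjusted p of 0.05. A fold change on this scale understates the change of low genes. Ratios within libraries and Fgf21 were tested with exact two-sided permutation tests (SciPy 1.17.1). The fit was tested on simulated data.

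Coordinates and overlaps came from GENCODE M21, shared sequence from 75-base stretches of its transcripts, and promoter windows from RefSeq (GRCm38.p6). The genes and lists were chosen with earlier results of these data known. Named are all 10 genes, the relatives in the ratios, and in each list the 3 largest rises and 3 largest falls with an adjusted p of at most 0.05. Other genes named (the eIF2 kinases, Slc38a2, receptors, overlapping genes, marker genes and genes with a promoter match) were named after their values were seen. Alternatives were pseudocounts of 0.1 and 1, no filter, filters at 1 and 5 FPKM, rescaling to TPM, quantile normalization, median-of-ratios scaling, array weights, no trend, a replicate block and each library left out.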

Additional observations from a re-analysis of the deposited data

How the results depend on the processing

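All 153 log2 fold changes of the 9 tested genes under an alternative kept their direction and an adjusted p of at most 0.05, with Trib3 between -2.28 and -2.10, Atf4 between -1.12 and -1.02 and Gdf15 between -0.53 and -0.38 (largest adjusted p 0.00882, limma). Of 580 values recomputed in all, 566 were kept, and none changed sign. For the fold changes of the 9 genes this meant the same direction and side of the p threshold, and for counts staying within 1.5 times. For the ratios it meant the same direction only, and for Fgf21 a shift no larger than the SD of the CON libraries. With the replicate block, 9 of the genes had an adjusted p of at most 0.05 and 6 passed both thresholds, as without it. Libraries with the same replicate number did not deviate together (correlations across genes of 0.025, -0.093 and -0.126). By the numbers in the titles, C1 with 4H1 gave 0.025 and C3 with 4H3 gave 0.176, the highest of the 9 pairs. Neither numbering gave a correlation over 0.1 in every pair, and no block by title number was fitted. Each list count that moved was 5 or lower before the alternative, while other counts as low stayed. Rises in the mitochondrial list went from 1 to 0 without a trend, with quantile normalization, with the replicate block and with each library left out (0 in each case). Rises in the eIF2 list went from 2 to 4 after rescaling to TPM. At a mean of at least 5 FPKM, rises among other ATF4 and CHOP targets went from 5 to 3 and falls among mitokine receptors and hormones from 5 to 3, as fewer genes were tested, and with no filter rises in the latter went from 5 to 8, as more were tested. Rises among other ATF4 and CHOP targets went from 5 to 2 with the relatives of the stress response genes left out, an alternative chosen after seeing the data. Fgf21 gave a log2 difference of -1.05 with no filter (adjusted p = 0.152) and of -1.64 without CON replicate 2, where it passed the filter only through the CON libraries left, so that no test is given. It also passed the filter, again through its CON levels, after rescaling to TPM and with any 4H library left out. Its adjusted p was above 0.05 in each of those fits (limma). The files hold no read counts, so a low level such as that of Fgf21 has no counting error.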
